A study of Mus musculus with 12 samples.

Results

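Heat shock protein and chaperone genes were followed in the cerebellum of 12 mice, 1 RNA library per mouse. The members are all protein-coding genes whose symbols fall in the Hsp70 (Hspa and Hsph1), Hsp90, small heat shock protein (Hspb), mitochondrial chaperonin (Hspd1, Hspe1), cytosolic chaperonin (Cct2 to Cct8, Tcp1) or J-domain (Dnaja, Dnajb, Dnajc) families and that had at least 10 reads in 4 or more libraries. Of 82 genes matching these symbols, 74 were members, out of 55401 genes in the count tables and 20099 genes that met the same read minimum. They comprised 14 Hsp70, 3 Hsp90, 2 mitochondrial chaperonin, 9 cytosolic chaperonin (TRiC), 6 small heat shock protein, 4 DNAJA, 11 DNAJB and 25 DNAJC genes. Cct8l1, Dnajb7, Dnajb8, Dnajc22, Dnajc5b, Dnajc5g, Hspb7 and Hspb9 matched by symbol but stayed below the read minimum. Cct6a entered as protein-coding in RefSeq, since the GENCODE release used for names types it as a processed transcript.

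The mice were wild-type or heterozygous Atxn1 154Q/2Q knock-ins, which model spinocerebellar ataxia type 1 (SCA1) through an expanded polyglutamine tract coded at the endogenous Atxn1 locus. The groups were wild-type mice given dimethyl sulfoxide (WT DMSO, animals 413, 425, 426 and 431), knock-ins given the same vehicle (Het DMSO, 409, 411, 420 and 429) and knock-ins given the compound Hit 2 in vehicle (Het Hit2, 410, 421, 422 and 430). Injections into the peritoneum began at 18 weeks of age, ran daily over 5 days, paused for 2 days and ran for another 5 days. Hit 2 was dissolved at 25 mg/ml and the vehicle was held under 4 ml/kg. All 12 mice therefore received DMSO and repeated injection, and tissue was taken on the last injection day at 20 weeks. The whole cerebellum was used, so that fewer cells of a type and less RNA per cell cannot be told apart in any value below.

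Chaperones bind unfolded or aggregation-prone protein. J-domain proteins deliver clients to Hsp70 and stimulate its ATPase, Hsp110 members such as Hsph1 exchange the nucleotide, Hsp90 acts late on kinases and receptors, and the ring-shaped TRiC folds actin and tubulin. On proteotoxic stress the factor HSF1 induces the heat-inducible members through heat shock elements in their promoters, while unfolded protein in the endoplasmic reticulum (ER) induces a separate set led by Hspa5 (BiP). In SCA1, mutant ataxin-1 forms nuclear inclusions that recruit chaperones, and raised Hsp70 eased disease in transgenic mice.

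The libraries held 15855751 to 45265719 reads assigned to genes. Quasi-likelihood tests in edgeR, two-sided and with Benjamini-Hochberg adjustment, covered 19378 genes, 72 of the members among them. Hspa1l and Hspb2 were too low for the test. Levels are given as CPM, a gene's reads relative to its library's total after TMM scaling (counts per 1000000 reads). Atxn1 averaged 161 CPM in WT DMSO, 171 CPM in Het DMSO and 165 CPM in Het Hit2 (SD 14.2, 11.7 and 20.2, n = 4 each), and these counts pool the expanded and the normal allele, so they do not check the genotype labels. Of the libraries, 2 in WT DMSO and none in the knock-in groups had high Xist, which was read as the mark of a female animal. Sex was thus not balanced between WT DMSO and the knock-in groups and is partly confounded with genotype. The term for high Xist used below stands for sex. Library 411 of Het DMSO did not match its tissue label: its summed level over 12 granule cell markers was 206 CPM against 4515 to 7839 CPM in the libraries other than 409 and 411, over 12 Purkinje cell markers 679 CPM against 3441 to 8177 CPM, and over 10 markers of neurons outside the cerebellum 182 CPM against 15.3 to 74.9 CPM. In library 411, 1 of the 12 granule and 1 of the 12 Purkinje markers lay below 1 CPM, and oligodendrocyte markers summed to 6799 CPM against 1328 to 5652 CPM. Astroglia markers (10 genes of astrocytes and Bergmann glia, each above 1 CPM in every library) summed to 3690 to 4093 CPM in WT DMSO, 2682 to 3196 CPM in Het DMSO and 2903 to 3083 CPM in Het Hit2. The Purkinje sum was 7838 to 8177 CPM in WT DMSO and at most 7183 CPM in any knock-in library, so for both lists every knock-in library lay below every WT library. Library 409 of Het DMSO had 0.0795% of gene reads from mitochondrial genes, where the range reached 2.81%, and the most multimapping reads (7.01%). Both are in the same group, so results on Het DMSO are also given without them.

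The chaperones took 5902 to 8418 CPM of each library in sum, with the lowest value in library 431 and the highest in library 411. Hsp70 genes held 29.7% of the summed member CPM on average, DNAJC genes 26.6%, Hsp90 genes 19.1% and TRiC 10.7%, while the Hspb genes held 0.358%. Cryab, a small heat shock protein outside the symbol rule, averaged 32.1 CPM, against a mean sum of 22.8 CPM over the Hspb genes. Per kilobase of exon, Hsp90ab1, the constitutive cytosolic Hsp90, was highest with 254 CPM per kilobase, followed by Hspa8 (204), the constitutive Hsp70 also called Hsc70, and the inducible Hsp90aa1 (79.8). Dnajc5 (47.8 CPM per kilobase), the synaptic vesicle chaperone CSPα, and Dnajc6 (41.4), the neuronal auxilin that uncoats clathrin vesicles with Hsc70, came next and ranked above every other J-domain gene. The ER members Hsp90b1 (39.1) and Hspa5 (35.5) and the mitochondrial Hsp70, Hspa9 (38.3), had close values. The stress-inducible Hsp70 genes Hspa1a (1.29) and Hspa1b (0.902 CPM per kilobase) were far below Hspa8, by mean over the 12 libraries. At the bottom stood Dnajb13 (0.105), an axonemal J-domain gene, and Hspa1l (0.131), the testis-type Hsp70, with no more than 20 reads in any library for either.

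**Figure D1:**
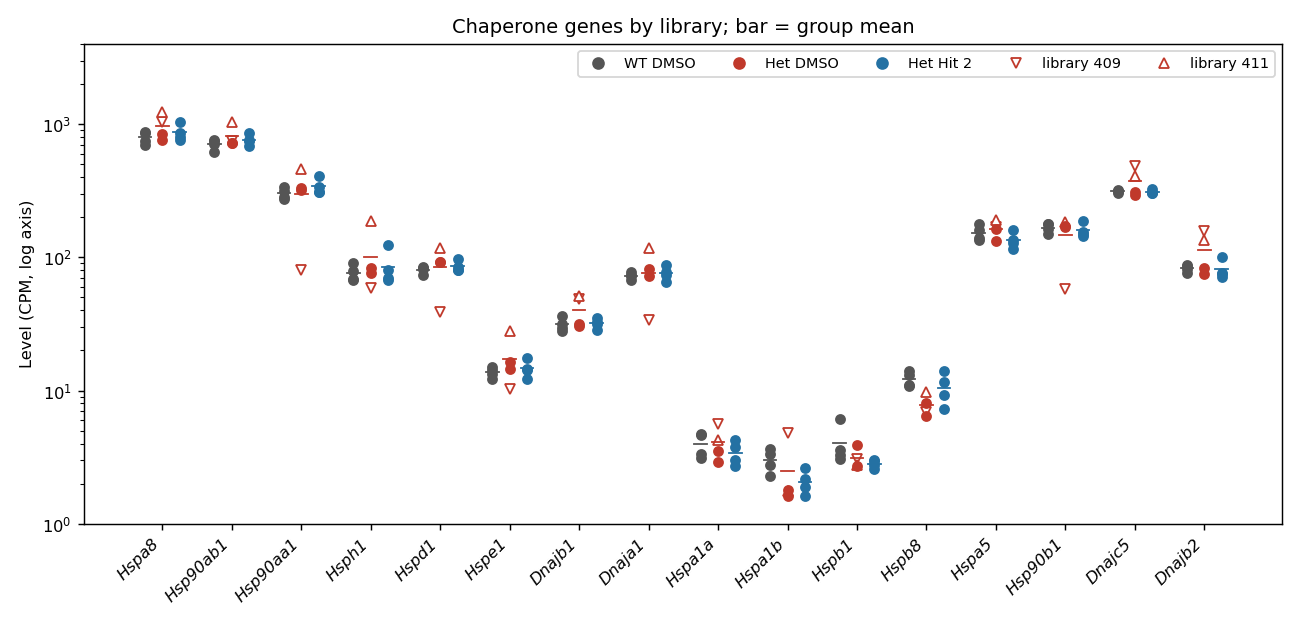
Levels of 16 chaperone genes (CPM, log axis) by gene, with WT DMSO in grey, Het DMSO in red and Het Hit2 in blue; each point is 1 library, bars are group means, and triangles are libraries 409 (down) and 411 (up). Group means lie close for most genes, and the 2 triangles are often farthest from the rest, as for Hsp90aa1 at 80.1 and 459 CPM.

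Promoter sequences show which members carry the elements of these stress responses. Windows of 300 bases, 250 before to 50 after a RefSeq transcript start (GRCm38.p6), were found for 61 of the 74 members (80 windows). A heat shock element of 3 alternating units (GAANNTTCNNGAA or TTCNNGAANNTTC, which are each other's reverse complement) was in 6 of the 80 member windows (7.5%) and in 0.603% of all 32851 windows. The members with it were Dnajb6, Hspd1, Hspe1 and Hsph1. The 6 windows are not separate sequences, since the 2 windows of Hsph1 overlap and those of Hspd1 and Hspe1 hold the same element, so the share counts some letters more than once. A pair of units (GAANNTTC or TTCNNGAA, both palindromes and also found inside the longer element) was in 25.0% of member windows and 15.1% of all windows, and 18 members had it, Hspa1a, Hspa1b, Hspb1 and Hspb8 included. The ER stress element (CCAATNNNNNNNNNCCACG, or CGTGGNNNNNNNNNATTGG on the other strand) was in 3 member windows and in 0.119% of all windows, and the members with it were the ER chaperones Dnajc3, Hsp90b1 and Hspa5. Such a match is a description of letters and not a shown binding site.

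The windows printed here all hold an element and belong to genes named in the comparisons. Other windows of named genes hold none: the windows of the heat-induced Dnajb1, and another window of Hspd1 (chr1:55088194-55088493). Capitals mark heat shock element units in the Hspd1, Hsph1, Hspa1a, Hspa1b and Hspb8 windows and the ER stress element in the Hspa5 and Hsp90b1 windows. Hspd1 and Hspe1, the mitochondrial Hsp60 and its lid Hsp10, lie head to head. The printed Hspd1 window shares 285 bases with that of Hspe1, so the same letters lie in the window of Hspe1 on the opposite strand. Windows of Hspa1a and Hspa1b are identical at 296 of 300 bases.
Hspd1 (chr1:55087883-55088182, minus strand): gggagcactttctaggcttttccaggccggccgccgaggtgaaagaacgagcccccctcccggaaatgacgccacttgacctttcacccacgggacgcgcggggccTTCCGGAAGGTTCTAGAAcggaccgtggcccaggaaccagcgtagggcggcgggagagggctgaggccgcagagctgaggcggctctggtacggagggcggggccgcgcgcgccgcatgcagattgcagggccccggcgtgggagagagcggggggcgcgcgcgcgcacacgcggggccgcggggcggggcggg
Hsph1 (chr5:149636266-149636565, minus strand): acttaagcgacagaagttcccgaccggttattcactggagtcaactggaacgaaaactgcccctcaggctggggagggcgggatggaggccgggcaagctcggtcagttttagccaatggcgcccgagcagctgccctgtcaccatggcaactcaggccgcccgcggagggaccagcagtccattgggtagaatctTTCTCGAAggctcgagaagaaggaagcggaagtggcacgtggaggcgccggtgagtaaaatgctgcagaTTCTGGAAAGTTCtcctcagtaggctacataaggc
Hspa1a (chr17:34972107-34972406, minus strand): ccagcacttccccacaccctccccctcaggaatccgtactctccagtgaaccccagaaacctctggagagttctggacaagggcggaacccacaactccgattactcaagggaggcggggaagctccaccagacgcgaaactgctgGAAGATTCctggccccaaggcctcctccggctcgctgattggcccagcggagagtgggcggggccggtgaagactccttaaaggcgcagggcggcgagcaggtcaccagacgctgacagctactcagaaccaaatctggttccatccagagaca
Hspa1b (chr17:34959189-34959488, minus strand): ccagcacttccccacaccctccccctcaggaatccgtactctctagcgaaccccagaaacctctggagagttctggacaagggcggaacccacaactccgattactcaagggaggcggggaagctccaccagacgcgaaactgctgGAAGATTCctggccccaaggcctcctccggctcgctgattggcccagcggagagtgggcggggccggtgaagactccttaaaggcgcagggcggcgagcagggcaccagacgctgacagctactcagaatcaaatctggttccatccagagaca
Hspb8 (chr5:116422815-116423114, minus strand): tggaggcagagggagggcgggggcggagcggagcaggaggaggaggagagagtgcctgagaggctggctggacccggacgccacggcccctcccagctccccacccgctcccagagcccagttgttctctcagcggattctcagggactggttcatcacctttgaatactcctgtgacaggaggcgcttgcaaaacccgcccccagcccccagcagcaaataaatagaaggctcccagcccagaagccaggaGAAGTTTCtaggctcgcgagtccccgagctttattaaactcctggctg
Hspa5 (chr2:34771840-34772139, plus strand): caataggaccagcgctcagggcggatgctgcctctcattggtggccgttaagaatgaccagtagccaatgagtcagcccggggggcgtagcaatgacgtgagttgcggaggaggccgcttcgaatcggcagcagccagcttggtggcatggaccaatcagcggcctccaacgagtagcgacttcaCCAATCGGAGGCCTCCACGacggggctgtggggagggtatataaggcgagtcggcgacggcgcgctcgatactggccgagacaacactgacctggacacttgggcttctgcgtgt
Hsp90b1 (chr10:86705395-86705694, minus strand): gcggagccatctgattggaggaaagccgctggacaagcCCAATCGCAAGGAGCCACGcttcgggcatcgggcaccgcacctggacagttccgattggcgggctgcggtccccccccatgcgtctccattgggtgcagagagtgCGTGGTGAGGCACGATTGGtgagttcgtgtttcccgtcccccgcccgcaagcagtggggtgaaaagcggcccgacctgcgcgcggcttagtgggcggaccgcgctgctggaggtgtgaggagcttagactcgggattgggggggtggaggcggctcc
The printed Hspd1 window holds the long element in 2 overlapping copies, Hsph1 holds its long element near the transcript start, and Hspa1a, Hspa1b and Hspb8 hold a single pair. Hsp90b1 holds the ER element in both orientations.

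The libraries that stood apart did so in the chaperone genes too. Of the 74 members, 35 (47.3%) had their highest level of all 12 libraries in 411, against 27.5% of all genes tested. They included 7 of the 9 TRiC genes, 8 of the 14 Hsp70 genes, and Hspd1 and Hspe1. In the opposite direction, 34 members (45.9%) were lowest in 409, against 31.9% of all genes tested, and 20 members (27.0%) were highest there, against 28.3% of all genes. In all, 23 members (31.1%) were lowest in 409 and highest in 411, against 10.4% of all genes tested. The 69 members (93.2%) that had 409 or 411 at an extreme compare with 88.7% of all genes. Over the other 10 libraries the median SD of log2 CPM per member was 0.12, against 0.28 over all 12, and the same medians over all genes tested were 0.20 and 0.37.

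**Figure D2:**
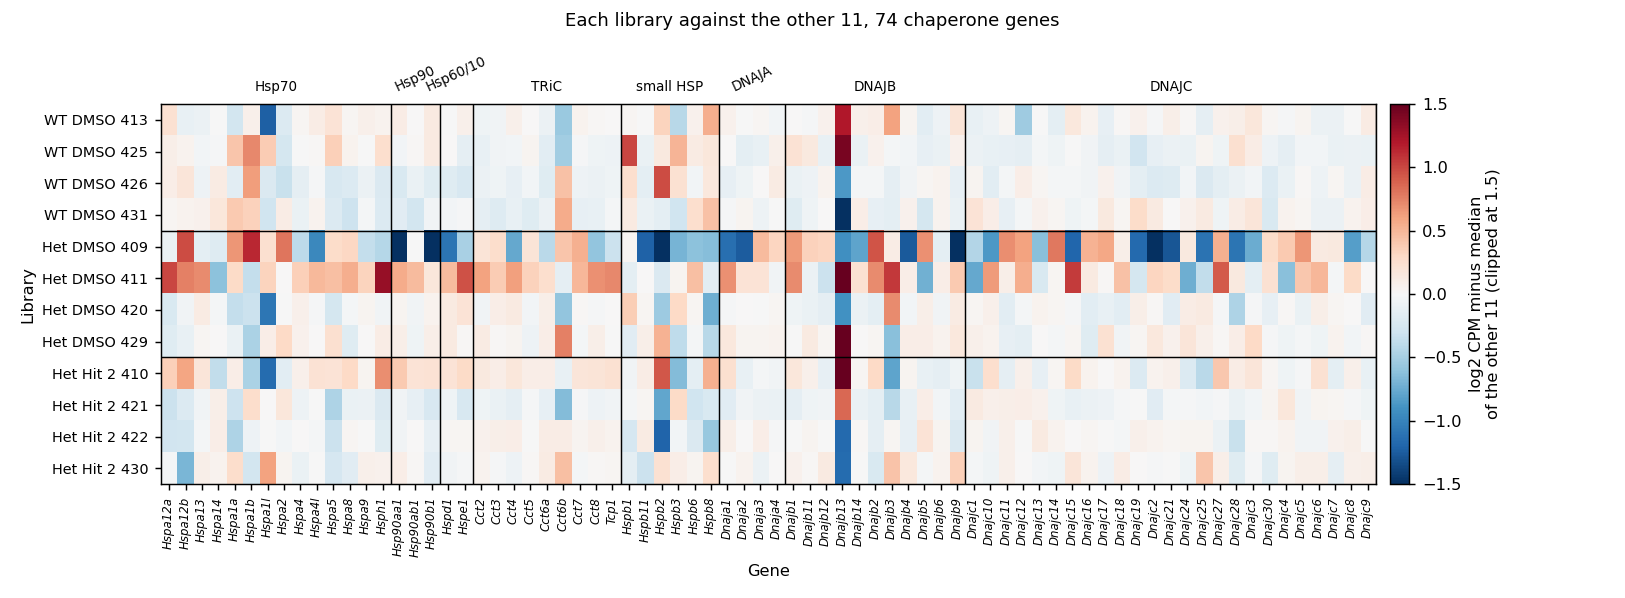
Heat map of 74 chaperone genes (columns, by family) in 12 libraries (rows, by group): colour is log2 CPM minus the median of the other 11 libraries, clipped at 1.5. The rows of Het DMSO libraries 409 and 411 carry most of the strong colour, with medians of -0.14 and 0.29 over the members.

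The deviation of library 409 followed base composition. Across the 74 members, Pearson r between GC content of the longest transcript and the library's deviation was 0.58 in 409 (0.66 over all genes tested with a GC value) and -0.20 in 411 (0.02 over all genes tested), as a description over genes that share a library. In the other 10 libraries it ran from -0.34 (422) to 0.35 (425) over the members and from -0.20 to 0.10 over all genes tested. Of the 25 members lowest in GC (39.5% to 45.6%), 22 lay below the other libraries in 409, with a median of -0.86 on the log2 scale. The 25 members highest in GC (50.6% to 61.7%) had a median of 0.33 there. In 411 the low-GC members had a median of 0.45 and the high-GC members of 0.10. What part base composition, tissue makeup or RNA quality had in the chaperone levels of these libraries was not tested.

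**Figure D3:**
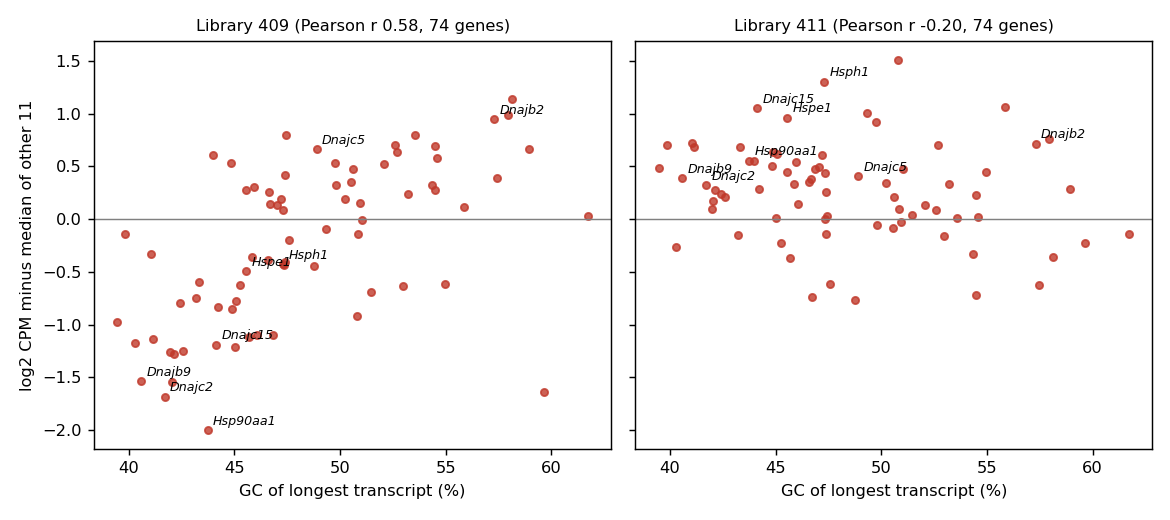
Deviation of each of 74 chaperone genes from the other 11 libraries (log2) against GC content of its longest transcript (%), in library 409 (left) and library 411 (right); each point is 1 gene. In 409 the points rise with GC (r 0.58), with Hsp90aa1 lowest at -2.0, whereas in 411 r was -0.20 and Hsph1 lay at 1.30.

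The comparison of Het DMSO with WT DMSO asked which chaperones differ in knock-in mice under vehicle. None of the 72 members tested passed an edgeR adjusted p of 0.05 (smallest 0.616), where 0.00516% of all genes did (1 gene). At an unadjusted edgeR p under 0.05 there were 6 members, against 7.11% of all genes tested. These were Hspa2, Cct2, Cct3, Cct7 and Dnajc27 with higher and Hspb8 with lower means. Fold changes ran from -0.65 to 0.48 on the log2 scale and no member exceeded a 2-fold difference. Of the members, 46 had an estimate above 0 and 26 below, with a median of 0.09 (all genes: 55.8% above 0, median 0.05). Without 409 and 411 the median was 0.02, and 47 of 74 were above 0 (all genes: 48.6%, median -0.0051). The median standard error of a member's log2 fold change was 0.18, which sets what 4 mice per group could resolve.

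**Figure D4:**
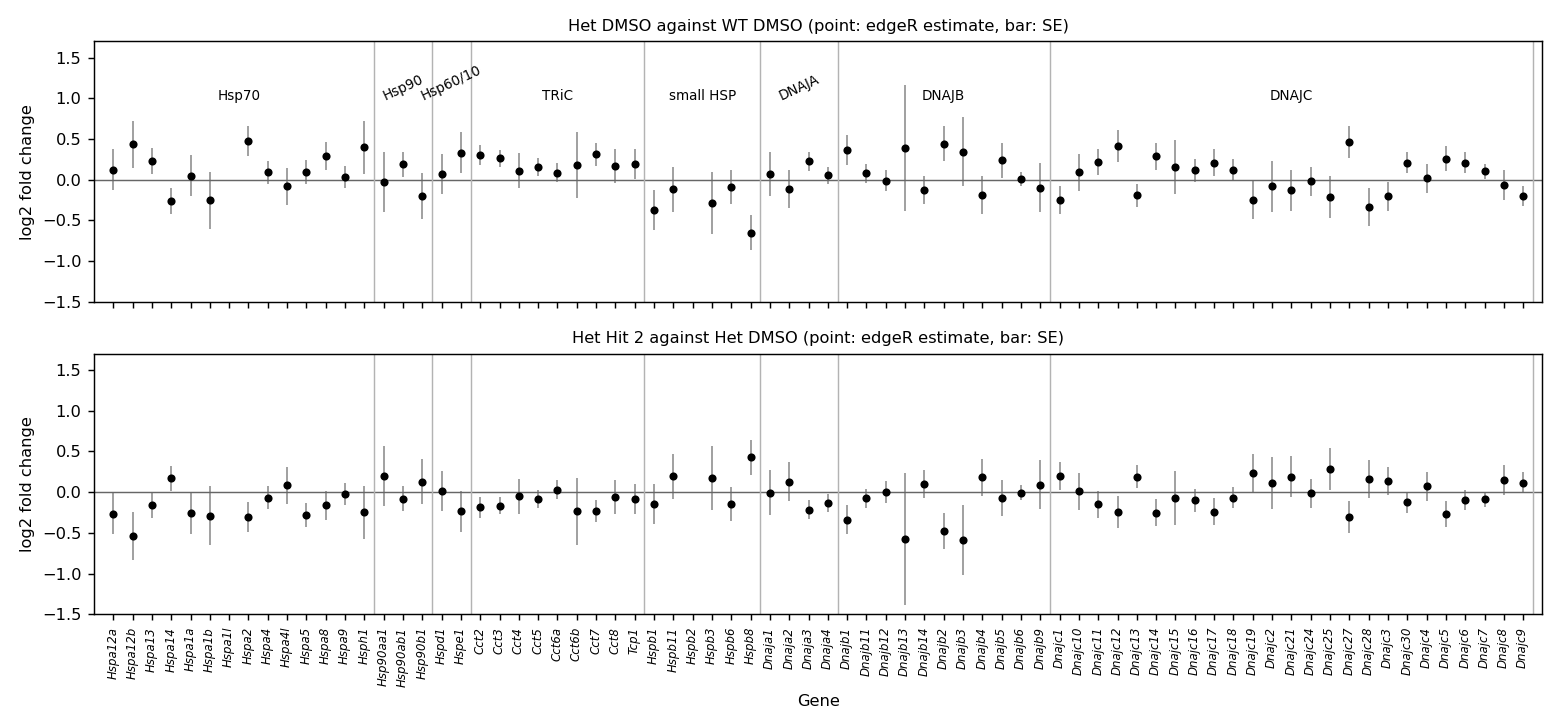
edgeR log2 fold change (point) and its standard error (bar) for 72 chaperone genes by family, Het DMSO against WT DMSO above and Het Hit2 against Het DMSO below; Hspa1l and Hspb2, which were not tested, have no point. Upper estimates run from -0.65 (Hspb8) to 0.48 (Hspa2), lower ones from -0.59 to 0.43, and no adjusted p passed 0.05.

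The lowest estimate belonged to Hspb8, the small heat shock protein that works with Bag3 in clearing aggregates by autophagy. Hspb8 measured 14.1, 10.9, 10.8 and 13.1 CPM in WT DMSO, 6.94, 9.67, 6.47 and 8.08 CPM in Het DMSO, and 14.0, 9.23, 7.26 and 11.6 CPM in Het Hit2. Every Het DMSO library lay below every WT DMSO library, while the Het Hit2 libraries spread over both ranges. The astroglia and Purkinje marker sums were also lower in every Het DMSO than in every WT DMSO library, and they were lower in every Het Hit2 library too, and their part in the level of Hspb8 was not tested. Het DMSO against WT DMSO gave a log2 estimate of -0.65 (SE 0.21, edgeR adjusted p 0.616), and the exact two-sided permutation p of 0.0286 is the smallest that 4 against 4 can give. It was -0.75 without 409 and 411 (edgeR adjusted p 0.564). Over the members, Het DMSO and WT DMSO did not overlap in 3 genes, Cct2 and Cct3 with Het DMSO higher and Hspb8 with it lower, against 1.98% of all genes tested higher and 2.43% lower. Among the Hspb genes tested, 5 of 5 had estimates below 0 (median -0.29), and none passed the adjusted test. One of them, Hspb3, averaged only 0.384 CPM. Without 409 and 411, when Hspb2 was also tested, 5 of 6 were below 0 (median -0.22). The astroglia sum was lower in the same libraries, at 2682 to 3196 CPM against 3690 to 4093 CPM, and its part in these estimates was not tested. Hspb1 (Hsp27) measured 3.07, 6.09, 3.60 and 3.31 CPM in WT DMSO and 3.08, 2.77, 3.92 and 2.71 CPM in Het DMSO. WT library 425 stands high for Hspb1, and the estimate of -0.37 went to -0.10 without it and to -0.03 with a term for high Xist. Hspb6, also called Hsp20, ran from 5.66 to 6.80 CPM in WT DMSO and from 3.79 to 7.81 CPM in Het DMSO, with an estimate of -0.09, which turned to 0.26 with unstranded counts. Cryab, a small heat shock protein but not a member, measured 38.3, 36.5, 29.5 and 19.1 CPM in WT DMSO. In Het DMSO Cryab had 21.2, 61.1, 18.8 and 34.0 CPM, with library 411 highest, and the groups overlapped.

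TRiC subunits, which form a double ring around folding actin and tubulin, had estimates above 0 in 9 of 9 genes, with a median of 0.18. The 9 include Cct6b, which averaged only 0.515 CPM and had 5 to 26 reads per library. Cct2 measured 79.9, 77.3, 78.4 and 76.2 CPM in WT DMSO and 92.5, 123, 80.9 and 88.5 CPM in Het DMSO. Cct3 measured 74.7, 74.8, 74.3 and 67.9 CPM in WT DMSO and 91.6, 99.6, 82.2 and 77.5 CPM in Het DMSO. For both genes all Het DMSO libraries were above all WT libraries, and library 411 was highest. The astroglia and Purkinje marker sums part the same libraries, with the knock-ins lower, and their part in the TRiC levels was not tested. Log2 fold changes were 0.30 for Cct2 (SE 0.13) and 0.27 for Cct3 (SE 0.10), each with an edgeR adjusted p of 0.616. Without 409 and 411 they were 0.11 for Cct2 (adjusted p 0.958) and 0.12 for Cct3 (adjusted p 0.973) in edgeR, with the 2 remaining Het DMSO libraries still above the WT libraries. Cct7 (0.31) went to 0.02 and Tcp1 (0.19) to 0.03 in the same fit, and the TRiC median to 0.10 with 8 of 9 above 0. Tcp1 reached 159 CPM in 411 and 77.1 CPM in 409, against 91.9 to 96.7 CPM in WT DMSO.

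A list of 13 members was read for the heat shock response: the heat-induced Hspa1a, Hspa1b, Hsph1, Hspa4l, Hsp90aa1, Dnajb1, Dnaja1, Dnajb4 and Hspb1, the constitutive Hspa8 and Hsp90ab1, and the mitochondrial Hspd1 and Hspe1. Of the 13, 8 had estimates above 0 and 5 below, with a median of 0.07, and none passed the adjusted test. The counts were the same without 409 and 411, with a median of 0.02. Hspa1b measured 2.28, 3.62, 3.37 and 2.77 CPM in WT DMSO, 4.83, 1.76, 1.80 and 1.62 CPM in Het DMSO and 1.62, 2.62, 2.16 and 1.87 CPM in Het Hit2. Library 409 was the highest of all 12 and the other 3 Het DMSO libraries were below every WT library. The estimate was -0.25 (SE 0.36, edgeR adjusted p 0.776) and went to -0.83 (SE 0.26, edgeR adjusted p 0.551) without 409 and 411, but with a term for high Xist it was 0.0008. Hspa1a, its near-identical neighbour, measured 3.10, 4.70, 3.37 and 4.61 CPM in WT DMSO and 5.59, 4.28, 2.92 and 3.5 CPM in Het DMSO, which overlap (estimate 0.05, and -0.30 without 409 and 411). Reads that fit both genes are set apart as multimapping in such tables, so these 2 levels are uncertain. Hsph1, the Hsp110 whose window holds the long heat shock element, measured 79.1, 91.0, 67.9 and 68.9 CPM in WT DMSO and 58.8, 188, 76.2 and 82.6 CPM in Het DMSO. Libraries 409 and 411 were its lowest and highest, and the estimate of 0.40 (SE 0.33, edgeR adjusted p 0.648) went to 0.04 without them.

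Among the abundant cytosolic chaperones, library 411 held the highest level of Hsp90aa1, Hsp90ab1 and Hspa8. Hsp90aa1 measured 338, 313, 274 and 286 CPM in WT DMSO and 80.1, 459, 321 and 332 CPM in Het DMSO. Library 409 was lowest and 411 highest, the other Het DMSO values lay inside the WT range, and the estimate was -0.02 (SE 0.37). It was 0.28 without 409, -0.31 without 411 and 0.10 without both. Hspa8 measured 861, 875, 747 and 694 CPM in WT DMSO and 1046, 1234, 846 and 761 CPM in Het DMSO, and its estimate of 0.29 went to 0.0055 without 409 and 411. Hsp90ab1 (0.19) went to 0.02. Among the J-domain partners of Hsp70, estimates were above 0 in 3 of 4 DNAJA, 7 of 11 DNAJB and 14 of 25 DNAJC genes, and without 409 and 411 in 3 of 4, 7 of 11 and 17 of 25. Dnajb1 (Hdj1) measured 31.6, 36.5, 29.5 and 27.8 CPM in WT DMSO and 48.8, 51.2, 30.3 and 31.3 CPM in Het DMSO, with 409 and 411 above the rest, and its estimate of 0.37 went to -0.04. Dnaja1 (Hdj2), found in ataxin-1 inclusions, ran from 67.9 to 77.0 CPM in WT DMSO and from 33.6 (409) to 118 CPM (411) in Het DMSO. Several members have processed pseudogenes, Hspa8, Hspe1 and Hsp90aa1 among them, and how the counting split their reads is not given in the sources used here.

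Of 9 members reported elsewhere to modify polyglutamine aggregation, 8 had estimates above 0 (median 0.19), and 5 of 9 without 409 and 411 (median 0.0055). Dnajb6, a strong suppressor of polyglutamine aggregation, was among the steadiest, with 60.3 to 69.5 CPM over all 12 libraries and an estimate of 0.01 (SE 0.09). Dnajb2, a neuronal J-domain protein that shuttles ubiquitinated clients, measured 87.9, 85.7, 82.2 and 76.9 CPM in WT DMSO and 158, 135, 75.5 and 83.7 CPM in Het DMSO. Its estimate of 0.44 (SE 0.22, edgeR adjusted p 0.616) went to -0.07 without 409 and 411, the 2 high libraries. Dnajc5 measured 318, 305, 313 and 315 CPM in WT DMSO and 488, 409, 292 and 308 CPM in Het DMSO. Again 409 and 411 were above all WT libraries, and 0.26 went to -0.07 without them. Dnajc27, a small GTPase-like member, measured 128, 118, 111 and 118 CPM in WT DMSO and 176, 231, 121 and 123 CPM in Het DMSO (0.46, and 0.03 without 409 and 411). Dnajc6 (0.21) went to 0.05.

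Over the Hsp70 family, 10 of 13 estimates were above 0 (median 0.10), and 6 of 14 without 409 and 411 (median -0.06). Hspa2, an Hsp70 known from spermatogenesis that is also made in brain, had the highest estimate. Hspa2 measured 22.8, 21.9, 21 and 28.3 CPM in WT DMSO, 45.7, 26.4, 26.2 and 32.4 CPM in Het DMSO and 23.6, 29.5, 25.7 and 27.0 CPM in Het Hit2. The knock-in and WT ranges overlapped through WT library 431, and 409 was highest. The estimate was 0.48 (SE 0.18, edgeR adjusted p 0.616), 0.27 without 409 and 0.31 without 409 and 411 (edgeR adjusted p 0.835). Hspa12b, an endothelial Hsp70, had 0.44, which went to -0.10 without 409 and 411.

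In the ER, which holds 8 members, 4 estimates were above and 4 below 0 (median -0.01), whereas without 409 and 411 there were 7 above and 1 below (median 0.03), where 48.6% of all genes were above. Hspa5 measured 160, 177, 135 and 139 CPM in WT DMSO and 168, 189, 133 and 164 CPM in Het DMSO, with overlap and an estimate of 0.10 (SE 0.15) that turned to -0.05 without 409 and 411. Hsp90b1 (Grp94) ran from 149 to 179 CPM in WT DMSO and had 58.0, 183, 169 and 173 CPM in Het DMSO, where only 409 was outside the WT range by more than a few CPM. Dnajb9, an ER J-domain gene induced with Hspa5, had 7.36 CPM in 409 and 18.6 to 26.9 CPM elsewhere, and Dnajc3, whose product restrains the kinase PERK, 34.9 CPM in 409 and 52.8 to 71.1 CPM elsewhere. In mitochondria, 7 of 9 estimates were above 0 (median 0.16), and 6 of 9 without 409 and 411 (median 0.04). Hspd1 measured 83.8, 83.9, 74.3 and 81.3 CPM in WT DMSO and 39.1, 117, 92.1 and 92.1 CPM in Het DMSO. Hspe1 measured 15.0, 13.2, 12.2 and 14.3 CPM in WT DMSO and 10.3, 27.9, 16.5 and 14.5 CPM in Het DMSO. For this chaperonin pair 409 was the lowest and 411 the highest library of all 12, and the edgeR estimates were 0.07 for Hspd1 (SE 0.25) and 0.33 for Hspe1 (SE 0.25). Without 409 and 411 they were 0.18 (edgeR adjusted p 0.862) and 0.17 (edgeR adjusted p 1.000). Hspa9, also known as mortalin, had an estimate of 0.03 and ran from 156 to 172 CPM in WT DMSO. Dnaja3, its mitochondrial J-domain partner, had 0.23, which went to 0.05. Dnajc15, a J-domain protein of the import motor, ran from 18.6 CPM in 409 to 87.9 CPM in 411 and from 39.5 to 51.8 CPM in the others. Dnajc2, a ribosome-bound J-domain protein, had 4.68 CPM in 409 and 13.2 to 18.8 CPM elsewhere.

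The comparison of Het Hit2 with Het DMSO asked what the compound changed in knock-in mice. No member passed an edgeR adjusted p of 0.05 (smallest 0.898), and 0% of all genes did. At an unadjusted edgeR p under 0.05 there was 1 member (1.55% of all genes tested), and no member had groups that did not overlap (0.635% of all genes higher and 0.387% lower). Of the members, 25 had an estimate above 0 and 47 below, with a median of -0.08 (all genes: 44.3% above 0, median -0.04). The Het DMSO libraries serve in both comparisons, so opposite signs in the 2 comparisons follow in part from the same 4 values. Without 409 and 411, 34 of 74 were above 0 with a median of -0.01 (all genes: 52.3%, median 0.0094).

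The member with the unadjusted p under 0.05 was Dnajb2, which measured 101, 75.5, 76.0 and 71.6 CPM in Het Hit2. Library 410 was highest in its group and all 4 lay below 409 and 411. The estimate came to -0.48 (SE 0.22, edgeR adjusted p 0.898), and to 0.02 without 409 and 411. Hspb8 had the largest positive estimate, 0.43 (SE 0.22, edgeR adjusted p 0.898), and 0.52 without 409 and 411. It was 0.25 without library 410, which had 14.0 CPM, and its group overlapped both others. Hspa5, with 160, 116, 128 and 135 CPM in Het Hit2, had an estimate of -0.28 (SE 0.15, edgeR adjusted p 0.898) and -0.15 without 409 and 411. Hsph1 measured 124, 67.9, 69.7 and 79.7 CPM in Het Hit2, so that 410 stood above the other 3, and the estimate of -0.25 went to -0.49 without 410 and to 0.21 without 411. Next to 411, library 410 also had the lowest Purkinje marker sum (3441 CPM) and the highest oligodendrocyte sum (5652 CPM), and the part of these in its chaperone levels was not tested. Hspa1b was at -0.29 with all libraries and 0.27 without 409 and 411. The estimates of Dnaja3 (-0.22), Dnajb1 (-0.34) and Hspa12b (-0.54) went to -0.05, 0.05 and -0.02 without those 2 libraries.

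Compared with WT DMSO, Het Hit2 mice again had no member past an edgeR adjusted p of 0.05 (smallest 1.000), where 0.00516% of all genes were. No member had an unadjusted edgeR p under 0.05, against 1.71% of all genes tested. The comparison uses neither 409 nor 411 as a group member, although both still enter the shared estimate of spread. Without them 3 of 74 members had an unadjusted p under 0.05 (9.50% of all genes) and 90 genes but no member passed the adjusted test. With library weights it was 10 of 72 members (12.9% of all genes), and 221 genes but no member passed. Of the members, 43 were above 0 and 29 below, with a median of 0.02 (all genes: 55.7% above 0, median 0.02), and all lay within 1.5-fold. Cct2 was higher in all 4 Het Hit2 libraries than in all WT DMSO libraries, with 89.6, 80.0, 84.7 and 83.6 CPM, although the nearest WT value was 79.9 CPM. Its estimate was 0.12 (SE 0.13). Purkinje marker sums, at 3441 to 6809 CPM against 7838 to 8177 CPM, and astroglia sums parted the same libraries, and their part in the level of Cct2 was not tested. Hspb1 was lower in all 4, with 2.95, 3.01, 2.57 and 2.76 CPM, and its estimate was -0.51 (SE 0.25, edgeR adjusted p 1.000). It went to -0.24 without WT library 425 and to -0.17 with a term for high Xist. The astroglia sum was likewise lower in all 4 Het Hit2 libraries, at 2903 to 3083 CPM against 3690 to 4093 CPM in WT DMSO, and its part in the level of Hspb1 was not tested. Het Hit2 was apart from WT DMSO in 2.93% of all genes tested with Het Hit2 higher and in 3.39% with it lower. Hspa1b had the lowest estimate, -0.54 (SE 0.36), and its groups overlapped through WT library 413. It was -0.29 with a term for high Xist. In the fit without 409 and 411, where the spread was estimated from 10 libraries, Hspa1b had -0.56 (SE 0.20, edgeR adjusted p 0.394). Hspb8 had -0.22 (SE 0.21).

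Pairs of chaperones that share a machine or an inducer were compared over the mice. The r values here are Pearson correlations of log2 CPM over 12 libraries and over the 10 libraries other than 409 and 411, given as descriptions, since the libraries share group and tissue composition. Hspd1 and Hspe1, which share the promoter interval printed above, had r of 0.79 over 12 and 0.85 over 10 libraries. TRiC genes had a median pairwise r of 0.39 over 12 and 0.64 over 10, against 0.11 and 0.08 for all members tested and -0.0017 and -0.0004 for all pairs of the 19378 genes tested. The ER chaperones Hspa5 and Hsp90b1, both with the ER stress element, had -0.01 over 12 and 0.85 over 10 libraries. In 409 Hsp90b1 was low (58.0 CPM) and Hspa5 was not (168 CPM). Over the 8 ER members the median pairwise r was 0.13 over 12 and 0.19 over 10 libraries. Over the 13 members of the heat shock list it was 0.21 and 0.35. Hspa5 and Hsph1, whose windows hold different elements, had 0.61 and 0.67. Hsp90aa1 and Hsp90ab1 had 0.33 and 0.82. Hsph1 had r of 0.61 and 0.88 to Hsp90aa1, 0.53 and 0.81 to Dnajb1 and 0.68 and 0.77 to Hspa8. Among all 19378 genes tested, many were closer to Hsph1 than these 3, which ranked 4033, 4958 and 3319 over 12 libraries and 305, 943 and 1434 over 10. The inducible Hspa1b did not follow it, with r to Hsph1 of -0.54 over 12 and -0.41 over 10 libraries, and Hspa1a to Hspa1b gave 0.48 and 0.30.

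Among all genes tested, those whose pattern was most like that of Hsph1 over 12 libraries included Nrg1 (r 0.99), Ano4, Plekhh2, Rbms3, Rgs2, Rgs4, Tdrp, Elavl2 and Rapgef5, the last at 0.97. None of these is a chaperone. Nrg1 was also the most like over the 10 libraries (0.97). The most like member was Tcp1 (0.93 over 12 libraries). Library 411, with the highest Hsph1 level, weighs on all of the 12-library values.

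The rest of the heat shock and co-chaperone pathway was read from a list of 50 genes that are not members, such as heat shock factors, Bag proteins, Hsp90 co-chaperones, prefoldins and mitochondrial proteases. All 50 were tested and none passed an edgeR adjusted p of 0.05 in any of the 3 comparisons. In Het DMSO against WT DMSO 39 estimates were above 0 and 11 below (median 0.12), and without 409 and 411 there were 23 above and 27 below (median -0.0043). Bag3, the partner of Hspb8 and itself an HSF1 target, measured 19.3, 31.9, 26.2 and 26.1 CPM in WT DMSO, 13.1, 13.3, 25.9 and 15.92 CPM in Het DMSO and 18.8, 21.5, 13.9 and 17.4 CPM in Het Hit2. Most knock-in values lay below most WT values, with overlap because WT library 413 lay below libraries 420 and 421. Its log2 fold changes were -0.60 (SE 0.24, edgeR adjusted p 0.616) in Het DMSO and -0.53 (SE 0.24, edgeR adjusted p 1.000) in Het Hit2, both against WT DMSO, a control group they share. Without 409 and 411 the former was -0.33, and with a term for high Xist the latter was -0.34. In every knock-in library the astroglia and Purkinje marker sums were below every WT value too, and their part in the level of Bag3 was not tested. Hyou1, the ER Hsp110, had 245 and 193 CPM in 409 and 411 and 110 to 134 CPM elsewhere, and its estimates were 0.51 (Het DMSO against WT DMSO) and -0.49 (Het Hit2 against Het DMSO), which went to -0.01 and 0.02. The prefoldin subunit Pfdn6 was higher in all Het DMSO than in all WT libraries, by a margin only in the second decimal, with 23.6, 23.5, 26.22 and 25.1 CPM in WT DMSO and 33.6, 31.3, 26.24 and 29.5 CPM in Het DMSO (0.29, SE 0.11, edgeR adjusted p 0.616), and 0.17 without 409 and 411. The same marker sums parted these libraries, and their part in the level of Pfdn6 was not tested. Ahsa2, an activator of Hsp90, went from 0.26 to 0.39 without the same 2 libraries (edgeR adjusted p 0.622). Fkbp5, an Hsp90 co-chaperone induced by glucocorticoids, had 87.7 CPM in Het Hit2 library 430 and 10.3 to 37.9 CPM in the others, and its estimate of 0.86 for Het Hit2 against WT DMSO was -0.08 without 430.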

How the data were processed

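Deposited tables of raw read counts per gene, in the layout of STAR, came with 1 table per library, and the authors used STAR 2.7.10a and FastQC 0.11.9 with builds GRCm39 and mm39, per the submitters' processing notes; the annotation release and counting options are not given in the sources used here. The labels' protocols give strand-specific, rRNA-depleted libraries (500 ng RNA, 13 PCR cycles) and paired reads of 100 bases. Counts of the strand holding most reads were used (5.21% to 6.47% of gene reads were on the other strand). Reads on no gene (44.7% to 54.6% of a library), multimapping and ambiguous reads stayed out of library sizes. Symbols and exon lengths came from GENCODE M21 (55141 of 55401 identifiers matched), and promoter sequences from RefSeq GRCm38.p6, neither of them the authors' build.

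All 12 libraries entered 1 fit in edgeR 4.0.16 (R 4.3.3; filterByExpr, TMM, quasi-likelihood, 1 coefficient per group, no covariate), after a check on simulated data. Standard errors came from the F statistic, and a prior count of 2 entered log2 CPM for correlations. Exact two-sided permutation tests over the 70 assignments of 8 libraries cannot go below 0.0286. Alternatives were DESeq2 1.42.0, RLE factors, other filters, unstranded counts, 2 groups only, robust fits, limma 3.58.1 with library weights, a term for high Xist and leaving out libraries. The members, gene lists and alternatives were chosen with earlier results of these data known. Members named with values were the 5 with the smallest p per comparison, the 3 highest and 3 lowest in CPM, the 5 most variable of at least 1 CPM, and a set chosen for its roles; of the other pathway genes, the 3 with the smallest p per comparison. Cct7 and genes cited as like Hsph1 were added because a count or the likeness rule picked them out. Cct6b was added for its low level, and Cryab as a small heat shock protein outside the symbol rule. A few genes that these rules picked are not reported here. Labels name separate animals, so the spread is between mice.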

Additional observations from a re-analysis of the deposited data

Results flagged for a closer look

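Each named gene was checked within each group of 4 by Dixon's ratio. This is the gap from an extreme library to the nearest value, as a share of the group's range. A check stood out where the ratio passed the cutoff that chance passes in about 1 in 20 checks. Large gaps that stayed under the cutoff, as for Hsph1 in library 411, were not flagged. Of 102 such checks 5 stood out, where chance gives about 1 in 20, or 5.1. In WT DMSO, Cct3 had 67.9 CPM in library 431 while the other 3 lay at 74.3 to 74.8 CPM. In Het DMSO, Hsp90ab1 reached 1041 CPM in library 411 (the others 721 to 748 CPM), Hsp90b1 fell to 58.0 CPM in library 409 (the others 169 to 183 CPM), and Hspa1b reached 4.83 CPM in library 409 (the others 1.62 to 1.80 CPM). In Het Hit2, Dnajb2 had 101 CPM in library 410, with the others at 71.6 to 76.0 CPM. Of the 5, 3 belong to the Het DMSO libraries that stood apart in cell markers or mitochondrial reads.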

How the results depend on the processing

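Under all 24 alternatives per comparison, and at an adjusted p of 0.1, no member and none of the other pathway genes passed. The smallest adjusted p of any member was 0.160 (Hspa1b in Het DMSO against WT DMSO, under library weights), and the tests do not show that the chaperones are alike between groups. Members at an unadjusted p under 0.05 numbered 1 to 12 in Het DMSO against WT DMSO, 0 to 7 in Het Hit2 against Het DMSO and 0 to 10 in Het Hit2 against WT DMSO. The shares of all genes at that threshold ran from 2% to 14.4%, from 0.472% to 6.11% and from 0.658% to 12.9%. The count of 12, among 73 members tested without 429, stood beside 14.0% of all genes. Genes of all kinds that passed the adjusted test numbered 0 to 98, 0 and 0 to 221. Medians over the members ran from -0.0091 (without 411) to 0.12 (without 409) in Het DMSO against WT DMSO, from -0.11 (without 420) to 0.03 (without 411) in Het Hit2 against Het DMSO, and from -0.0021 (no low-count filter) to 0.04 (without 421) in Het Hit2 against WT DMSO. Over single genes, 2608 alternative values kept sign, side and size, 194 changed sign within their standard errors or moved by more than the spread, and 1 reversed beyond its error, Dnajc5 in Het DMSO against WT DMSO, from 0.26 to -0.0701 without 409 and 411; those 2 libraries hold its highest levels. Hspb8 stayed between -0.81 and -0.58 in that comparison. Hspa1a, Hspa1b and Hspb1 rest on few reads (28 at the lowest for Hspa1b). No paired analysis was possible because animal numbers do not recur between groups.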

Other observations

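Dnajb13, the lowest member per kilobase and a gene of the cilium, had 20 reads at most. It measured 0.392 and 0.470 CPM in WT libraries 413 and 425, 0.504 and 0.667 CPM in Het DMSO libraries 411 and 429, and 0.520 CPM in Het Hit2 library 410, against 0.0447 to 0.296 CPM in the other 7. Choroid plexus markers, from a list of 10 genes, summed to 697, 1126, 178, 1972 and 969 CPM in the same 5 libraries and to 16.4 to 61.6 CPM in the other 7. The 5 libraries come from all 3 groups, and what part choroid plexus tissue had in the level of Dnajb13 was not tested.

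Over the 10 libraries other than 409 and 411, the spread of single members differed widely. Hsp90aa1 spanned 1.50-fold and Hsph1 1.83-fold between the lowest and the highest library, against 2.24-fold for Hspa1b and 2.37-fold for Hspa12b. Among the J-domain genes, Dnajc2 spanned 1.28-fold and Dnajc15 1.31-fold, although these 2 were among the most variable members over all 12 libraries.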
